A study of Rattus norvegicus with 15 samples.

Results

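The response of jaw joint chondrocytes to mechanical stress was examined in cells that all carried an siRNA against Ddx5. Chondrocytes are the cells that build cartilage, and these were primary cells of the rat temporomandibular joint. The comparison took 6 of the 15 RNA-seq libraries of the series: 3 from cells given the Ddx5 siRNA plus mechanical stress, and 3 from cells given the Ddx5 siRNA alone. An siRNA is a small RNA with which cells break down transcripts of matching sequence. Both groups carried it, so stress is the only labelled difference between them. The members are the expressed genes: 14147 of the 33717 listed had enough counts to be tested, and 12068 had no count in any of the 15 libraries. Stressed and control cells without siRNA, 3 libraries each, served for setting this response beside the one in cells that received no siRNA. The sources used here do not give the kind and length of the stress, the way the siRNA was delivered, or the age and strain of the rats. No group of the series combined a control siRNA with stress. Whether the libraries of a group stem from different cultures or animals is not labelled. The p-values therefore speak only of the spread between libraries, which may be technical. In such bulk samples fewer cells of a type and less RNA per cell cannot be told apart.

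Chondrocytes sense load through the matrix around them, through integrins and stretch-gated channels, and damaging load is known to turn on inflammatory and matrix-degrading genes in joint tissue. Much of that programme runs through NF-kB. Inhibitor proteins hold this family of transcription factors in the cytoplasm, and stimulation destroys the inhibitors. NF-kB then enters the nucleus and switches on chemokines, adhesion receptors and also its own inhibitors, which close a feedback loop. A second programme is run by hypoxia-inducible factors, which are broken down while oxygen is present and which raise glucose uptake, glycolysis and genes of mitochondrial turnover. Cartilage has no blood vessels, and its cells are known for living on glycolysis. Ddx5 itself is an RNA helicase of the DEAD-box family with roles in transcription and splicing.

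Before the results, some facts on the libraries. Total counts ran from 14309005 to 16219775. Levels are given in CPM, a count divided by its library's size, which had been adjusted by the TMM method. Both replicate 1 libraries stood apart from the others of their group. The first principal component held 46.3% of the variance and placed them at −59.9 with stress and −30.7 without, while the other 4 libraries lay between 12.3 and 34.0. Type I collagen, Col1a1, took 6.57% of the counts in each of them and 4.37% to 4.65% in the others. Deviations from the group means correlated over genes at 0.589 between the replicate 1 libraries. Within numbers 2 and 3 they correlated at 0.252 and 0.352, and across these numbers at 0.257 and 0.245. The total of calls is therefore given also without both replicate 1 libraries, as are the glycolysis, hypoxia, NF-kB, chemokine and inflammatory mediator lists. Calls of single genes are given with 1 library left out at a time. Ddx5 itself was 164, 241 and 194 CPM with stress, against 221, 252 and 207 CPM without (log2 fold change −0.18, SE 0.13, edgeR adjusted p = 0.68). The groups overlapped, and a two-sided exact permutation test gave p = 0.40, where 3 libraries against 3 allow no p below 0.10. The cartilage label was checked against its markers. Of 12 chondrocyte markers 9 were tested, and the list summed to 186 to 331 CPM with stress and 211 to 433 CPM without. Most of that sum was a single gene, Acan, in each of the 6 libraries. Col2a1, the collagen that defines hyaline cartilage, was 0.391, 3.23 and 2.28 CPM with stress, against 0.992, 4.098 and 4.06 CPM without, while fibroblastic matrix genes together reached 115640 to 152254 CPM and 116690 to 153924 CPM. Markers of some other cells were low. Of 16 macrophage and leukocyte markers 7 were at 0 in the 6 libraries (Ptprc, C1qb, Cd163, Mrc1, Cd3e, S100a8 and Laptm5), and the list summed to 21.9 to 28.9 CPM with stress and 18.8 to 26.8 CPM without. Of 9 matched endothelial markers Cdh5, Tie1, Emcn and Cldn5 were at 0, and the list summed to 22.4 to 37.0 CPM and 20.2 to 36.6 CPM. A wider list, of cartilage matrix and identity genes, summed to 2298 to 2757 CPM with stress and 2397 to 2958 CPM without. Other marker lists exceeded that of the 12 chondrocyte markers. Synovial fibroblast and tendon markers, 11 of 12 tested, summed to 1151 to 2188 CPM with stress and 1194 to 2263 CPM without. Osteoblast markers summed to 42938 to 69489 CPM and 45123 to 68186 CPM, nearly all of it Col1a1, which fibroblasts also express. The other 5 tested osteoblast markers summed to 28.9 to 42.5 CPM and 32.2 to 37.9 CPM. The part of these cells in the results was not tested.

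Stress changed 169 genes in cells with the Ddx5 siRNA, and most of them rose. With a call at an adjusted p under 0.05 in edgeR's quasi-likelihood test, 149 genes rose (1.05% of those tested) and 20 fell (0.141%), together 1.19%. Of these, 94 rose and 3 fell by at least 2-fold. The median log2 fold change of all tested genes was −0.001, and 7041 of the 14147 values were positive. Values after "rose by" or "fell by" are log2 fold changes, stressed over unstressed, with 3 libraries per group. A number in brackets after a library that was left out is the edgeR adjusted p without it. In each of the 169 called genes the stressed and unstressed libraries did not overlap, which was also true of 15.3% of all tested genes. Separate groups, where mentioned below for a called gene, are thus a description and no further support for its call. The number of calls rested on the libraries used. It was 61 without Ddx5 siRNA replicate 2 and 71 without Ddx5 siRNA replicate 3, and 55 genes, 51 of which rose, were called with any 1 of the 6 libraries left out. A fit of the 15 libraries with a block for each replicate number, hereafter the block, called 250 genes. When that block was fitted to the 6 libraries alone 985 genes were called, 641 higher and 344 lower, and 23 of the 169 lost their call. The 6 libraries alone with no block gave 23 calls.

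**Figure D1:**
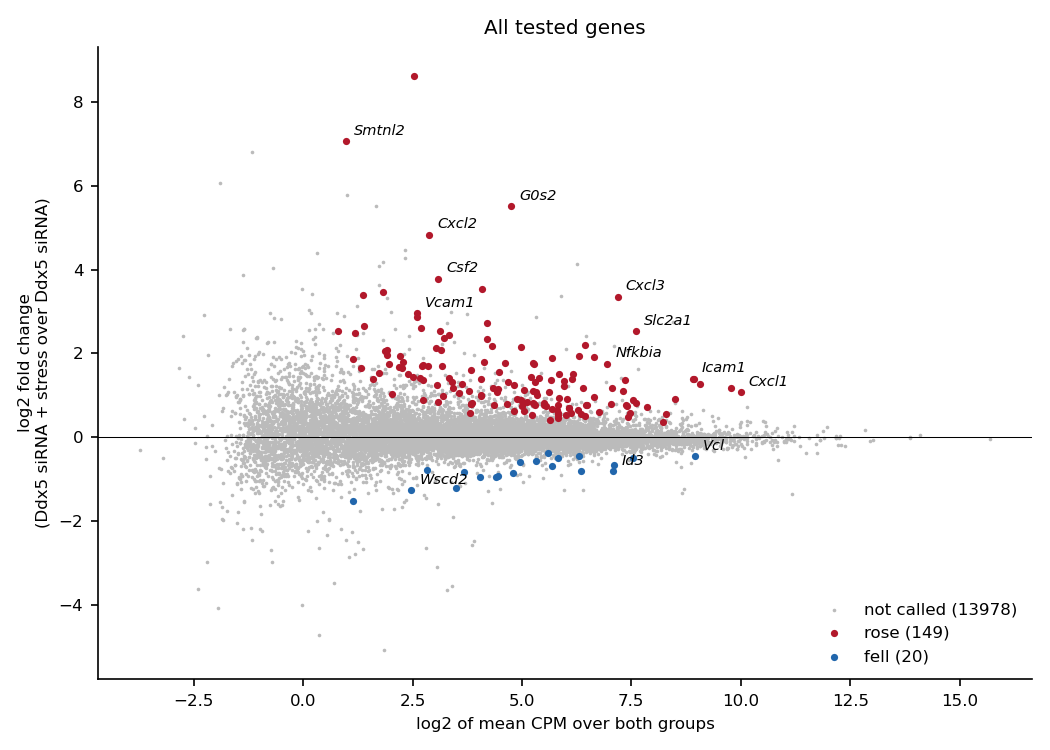
Log2 fold change of every tested gene (vertical axis, Ddx5 siRNA plus stress over Ddx5 siRNA) against the log2 of its mean CPM over both groups (horizontal axis). The 149 genes that rose are in red and the 20 that fell in blue, and the fallen genes lie closer to 0 than many of the risen ones.

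Genes of the NF-kB system were among those that rose. Of 20 tested NF-kB subunits and feedback inhibitors 8 rose and none fell, where 1.05% of all tested genes rose. The median log2 fold change of the list was 0.60. Summed over its members, the list was at 1798, 1779 and 1826 CPM with stress, against 1039, 1111 and 1081 CPM without. All 3 stressed libraries lay above all 3 unstressed ones, and those within a group lay close together. Nfkbia (chromosome 6, 76267228 to 76270457, coordinates as deposited with no build given) encodes the inhibitor IkB-alpha and had the lowest adjusted p of the list. It was 217, 175 and 180.0 CPM with stress, against 47.4, 65.9 and 56.1 CPM without. Each stressed library held more than 2 times the level of any unstressed one (log2 fold change 1.75, SE 0.12, edgeR adjusted p = 3.9e-06). Tnip1, a binding partner of the A20 inhibitor, was among the most abundant called genes, at 508, 457 and 447 CPM with stress, against 279, 242 and 228 CPM without (log2 fold change 0.92, SE 0.10, edgeR adjusted p = 0.00022). Tnfaip3, which encodes A20 itself, an enzyme that edits ubiquitin on NF-kB signalling proteins, was 70.2, 45.8 and 51.8 CPM with stress, against 25.5, 21.4 and 20.4 CPM without (log2 fold change 1.32, SE 0.20, edgeR adjusted p = 0.0031). In both genes the groups were well separated. The precursor subunits had smaller fold changes. Nfkb1 was 189, 208 and 206 CPM with stress, against 139.8, 144 and 146 CPM without (log2 fold change 0.49, SE 0.08, edgeR adjusted p = 0.0072) and Nfkb2 was 197, 243 and 284 CPM with stress, against 109, 139 and 145 CPM without (log2 fold change 0.88, SE 0.14, edgeR adjusted p = 0.0046). Rela, the main activating subunit, did not pass (log2 fold change 0.20, SE 0.13, edgeR adjusted p = 0.64), at 129 ± 11.5 CPM with stress and 113 ± 16.9 CPM without (SD, n = 3 each). Within this list the largest fold change was thus that of an inhibitor. Nfkbie, another cytoplasmic inhibitor, rose by 0.77 (SE 0.14, edgeR adjusted p = 0.0093). The other called members, Nfkbiz and Relb, fall outside the rule for named genes and are named after their values were seen. They rose by 0.83 and 0.52. The Nfkbiz call ended without Ddx5 siRNA replicate 2 (0.062) or 3 (0.072), and the Relb call without Ddx5 siRNA plus stress replicate 1 (0.12), 2 (0.071), Ddx5 siRNA replicate 1 (0.11), 2 (0.077) or 3 (0.11). The calls of Nfkbia, Tnip1, Tnfaip3, Nfkb1, Nfkb2 and Nfkbie held with any 1 of the 6 libraries left out.

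**Figure D2:**
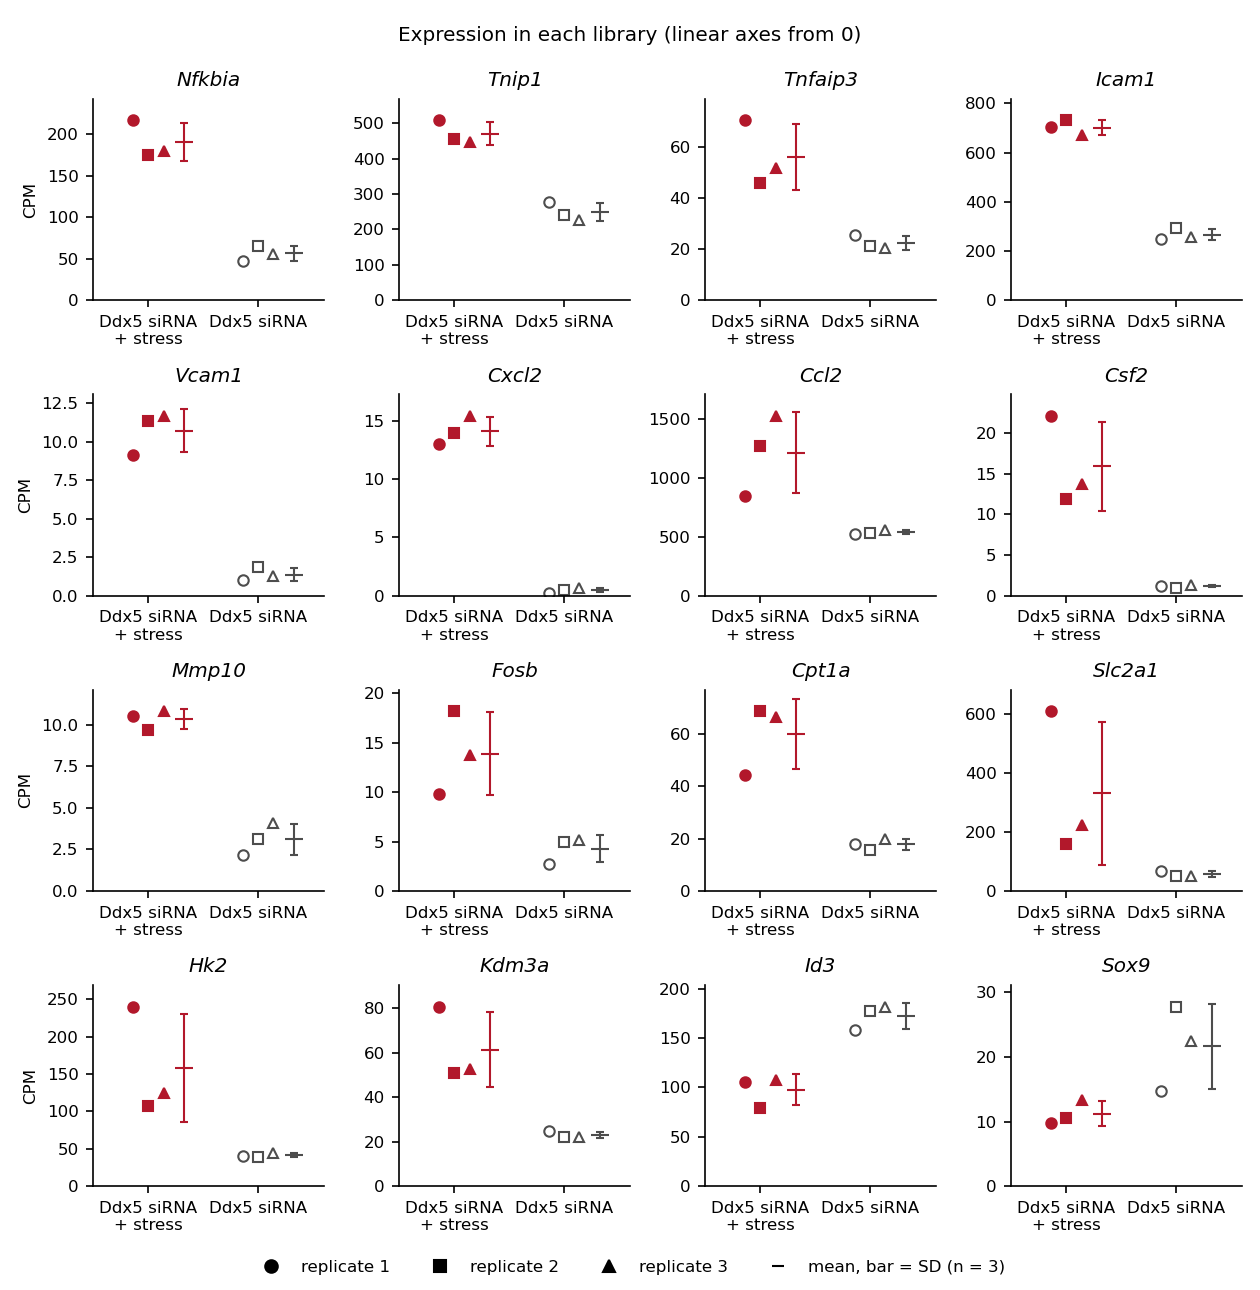
CPM in each library for 16 genes, with Ddx5 siRNA plus stress on the left of each panel and Ddx5 siRNA on the right. Marker shapes give the replicate number, and the bar beside them the mean and SD (n = 3). In each panel the groups are separate, and in Slc2a1 and Hk2 the replicate 1 library with stress lies far above the other stressed libraries, which it does not do in Icam1, Vcam1 or Cxcl2. That library is also the highest, by a smaller ratio, in Nfkbia, Tnip1, Tnfaip3, Csf2 and Kdm3a.

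The promoters of the 3 stress response markers with the lowest adjusted p are shown because NF-kB genes were among those that rose. They are RefSeq sequences on build GRCr8, each 300 bases long, from 250 bases before to 50 after the annotated start, written 5′ to 3′ on the gene's strand. Capitals mark matches to the NF-kB consensus, searched on both strands.
Nfkbia promoter (GRCr8 chr6:78597023-78597322, minus strand): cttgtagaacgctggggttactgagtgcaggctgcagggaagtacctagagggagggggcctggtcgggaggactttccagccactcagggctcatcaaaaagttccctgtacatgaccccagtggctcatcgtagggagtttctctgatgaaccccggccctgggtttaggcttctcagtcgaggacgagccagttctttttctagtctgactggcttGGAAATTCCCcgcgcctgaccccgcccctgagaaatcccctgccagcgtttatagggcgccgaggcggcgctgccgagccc
Cxcl2 promoter (GRCr8 chr14:17467206-17467505, minus strand): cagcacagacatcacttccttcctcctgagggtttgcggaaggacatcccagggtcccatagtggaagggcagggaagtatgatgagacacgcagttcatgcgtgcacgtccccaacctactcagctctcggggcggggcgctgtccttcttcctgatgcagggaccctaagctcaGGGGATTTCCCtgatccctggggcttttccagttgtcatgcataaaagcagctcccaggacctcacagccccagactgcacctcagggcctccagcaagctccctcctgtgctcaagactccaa
Icam1 promoter (GRCr8 chr8:27829595-27829894, plus strand): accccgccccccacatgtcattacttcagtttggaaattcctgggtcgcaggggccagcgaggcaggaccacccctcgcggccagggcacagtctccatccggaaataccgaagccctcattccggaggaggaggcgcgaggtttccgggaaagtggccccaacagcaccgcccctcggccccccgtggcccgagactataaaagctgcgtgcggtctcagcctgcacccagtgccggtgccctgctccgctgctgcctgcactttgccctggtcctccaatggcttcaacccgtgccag
The Nfkbia promoter held 1 match, whose first base lies 31 bases before the start. That of Cxcl2 held 3 matches that overlap one another, counting both strands, the first at 74 bases before the start. That of Icam1 held none, which says only that these letters are not in this window. Of 107 risen genes with a listed promoter, 22 held a match, or 20.6%, against 5.01% of 9284 tested genes and 4.18% of 33465 promoters in the table, while none of 11 fallen genes did. The AP-1 motif TGANTCA was in 12.1% of the promoters of genes that rose, 36.4% of those of genes that fell (4 of 11) and 4.93% of those of tested genes. The core of the hypoxia response element, ACGTG, was in 34.6%, 27.3% and 25.5%. These shares are descriptions of 300 bases per gene with no test, and a match is not a binding site.

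Adhesion receptors and other targets of NF-kB rose as well. Among inflammatory mediators and NF-kB targets 24 were tested, 8 rose and none fell (median log2 fold change 0.86). The share that rose was 1.05% over all tested genes. Vcam1 (chromosome 2, 219071193 to 219097619) encodes an adhesion receptor for leukocytes and was 9.12, 11.4 and 11.7 CPM with stress, against 0.992, 1.86 and 1.25 CPM without (log2 fold change 2.96, SE 0.33, edgeR adjusted p = 0.00035). Icam1, a second such receptor, was 703, 730.4 and 670.2 CPM with stress, against 248, 292 and 258 CPM without and had by far the higher level per length, 262 FPKM with stress and 100.3 FPKM without, against 2.65 FPKM with stress and 0.34 FPKM without for Vcam1 (means of the authors' FPKM). Stressed and unstressed libraries were separate for both receptors. Birc3, an inhibitor of apoptosis that also takes part in NF-kB signalling, was 41.8, 29.8 and 26.5 CPM with stress, against 7.34, 7.51 and 6.69 CPM without (log2 fold change 2.19, SE 0.20, edgeR adjusted p = 5.2e-05). Traf1, an adaptor of tumour necrosis factor receptors, rose by 1.33 (SE 0.21), and Tnfaip2 by 1.11 (SE 0.16). These calls held with any 1 library left out. The list shares Tnfaip3 with the one above. Its other called members, Irf1 and Tlr2, were chosen after their values were seen and rose by 0.82 and 0.91. The Irf1 call ended without Ddx5 siRNA plus stress replicate 1 (0.062), Ddx5 siRNA replicate 1 (0.051), 2 (0.077) or 3 (0.073), and that of Tlr2 without Ddx5 siRNA plus stress replicate 1 (0.12), 2 (0.052), Ddx5 siRNA replicate 2 (0.17) or 3 (0.13). Some well-known mediators did not pass. Ptgs2, the inducible cyclooxygenase, was 365, 378 and 455 CPM with stress, against 99.1, 323 and 375 CPM without (log2 fold change 0.59, SE 0.38, edgeR adjusted p = 0.66). Its lowest value was in replicate 1 without stress, and the other unstressed libraries lay close to the stressed ones. Il6 was 28.8, 8.78 and 8.54 CPM with stress, against 16.3, 6.21 and 2.81 CPM without (log2 fold change 0.87, SE 0.67, edgeR adjusted p = 0.73, and 0.015 with the block in the 6 libraries alone), and the groups overlapped. Il1b was too low to test, and Tnf had no count in the 6 libraries.

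Chemokines, the secreted proteins that draw leukocytes into tissue, were among the steepest rises. Of 16 tested chemokines and colony-stimulating factors 9 rose, none fell and all had positive log2 fold changes (median 1.44). Over all tested genes 1.05% rose, and 7041 of 14147 had positive values. Their sum was 5511, 5799 and 6720 CPM with stress, against 2930, 2704 and 2882 CPM without. Among attractants of neutrophils, Cxcl2 was 12.97, 13.9 and 15.4 CPM with stress, against 0.264, 0.497 and 0.687 CPM without (log2 fold change 4.84, SE 0.48, edgeR adjusted p = 0.00013), and Cxcl3 was 316, 214 and 265 CPM with stress, against 36.2, 19.7 and 21.8 CPM without (log2 fold change 3.36, SE 0.38, edgeR adjusted p = 0.0013). The groups were far apart in both. Cxcl1 was far higher in all 6 libraries, at 1219.7, 1367 and 1567 CPM with stress, against 519, 705 and 744 CPM without (log2 fold change 1.08, SE 0.16, edgeR adjusted p = 0.0031). Per length the stressed order was Cxcl1 with 1477 FPKM, Cxcl3 with 179 FPKM and Cxcl2 with 13.0 FPKM, and the fold changes ran in the opposite order. The 3 genes are close paralogs, and reads that fit several of them may have been split or dropped. Attractants of monocytes were abundant. Ccl2 was 845, 1272 and 1526 CPM with stress, against 525, 532 and 556 CPM without (log2 fold change 1.18, SE 0.17, edgeR adjusted p = 0.0027), and its neighbour Ccl7 was 651, 765 and 871 CPM with stress, against 399, 293 and 262 CPM without (log2 fold change 1.26, SE 0.16, edgeR adjusted p = 0.0012). The lowest stressed library lay above the highest unstressed one in each. Both calls were lost with the block in the 6 libraries alone (edgeR adjusted p = 0.11 and 0.20). Csf2 (chromosome 10, 39602089 to 39604070) encodes the growth factor GM-CSF of granulocytes and macrophages. It was 22.1, 11.9 and 13.7 CPM with stress, against 1.19, 0.993 and 1.25 CPM without (log2 fold change 3.79, SE 0.36, edgeR adjusted p = 0.00010), which is 13.8-fold higher with stress. Ccl5, an attractant of T cells and monocytes, was 24.2, 32.5 and 36.7 CPM with stress, against 1.26, 4.04 and 2.69 CPM without (log2 fold change 3.54, SE 0.60, edgeR adjusted p = 0.014), and Cx3cl1, a chemokine tethered to the membrane, was 14.3, 9.81 and 8.16 CPM with stress, against 2.45, 1.304 and 0.625 CPM without (log2 fold change 2.88, SE 0.47, edgeR adjusted p = 0.0069). The groups were separate in all of these. The Ccl5 call ended without Ddx5 siRNA replicate 1 (0.056) or 3 (0.084), and the Cx3cl1 call without Ddx5 siRNA replicate 2 (0.058). Cxcl16, named after its values were seen, rose by 1.11 (SE 0.17). Some abundant members did not pass but did with the replicate block: the macrophage growth factor Csf1 (0.72, edgeR adjusted p = 0.073, and 0.0057 with the block) and Ccl20 (1.62, edgeR adjusted p = 0.16, and 0.020 with the block). Ccl20 was 348, 267 and 293 CPM with stress, against 166, 69.8 and 60.2 CPM without, so that replicate 1 was the highest library in both groups.

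Immediate early genes, the factors a cell induces first after a stimulus, gave 1 call among 26 tested members (median log2 fold change 0.28). Of all tested genes 1.19% were called, and in a list of this size 1 call does not differ clearly from that share. Fosb, a partner of JUN proteins in the AP-1 factor, was 9.78, 18.2 and 13.7 CPM with stress, against 2.71, 4.97 and 5.12 CPM without (log2 fold change 1.70, SE 0.32, edgeR adjusted p = 0.014). Replicate 1 was the lowest library in each group, and the groups did not overlap. The call ended without Ddx5 siRNA plus stress replicate 2 (0.052) or Ddx5 siRNA replicate 2 (0.057). Its relative Fos was 11.2, 27.99 and 18.97 CPM with stress, against 6.15, 24.8 and 13.9 CPM without (log2 fold change 0.37, SE 0.47, edgeR adjusted p = 0.88) and Egr1, a zinc finger factor, was 73, 287 and 221 CPM with stress, against 66.8, 315 and 268 CPM without (log2 fold change −0.16, SE 0.55, edgeR adjusted p = 0.96). In both the low library of each group was replicate 1, and the values spanned more within a group than between groups. Further members passed with the block. Nr4a3, an orphan nuclear receptor, had a log2 fold change of 1.76 (edgeR adjusted p = 0.052, and 0.047 with the block). Ier3, a stress-induced survival gene, had one of 0.66 (0.062, and 0.037 with the block).

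Among 23 tested matrix-degrading proteases 3 rose and none fell, where 1.05% of all tested genes rose. The list had a median of 0.007. The stromelysin Mmp10, an enzyme that cuts proteoglycans and activates other metalloproteinases, was 10.5, 9.67 and 10.8 CPM with stress, against 2.18, 3.104 and 4.06 CPM without (log2 fold change 1.72, SE 0.23, edgeR adjusted p = 0.0013). The related Mmp3 was 142, 86.5 and 79.5 CPM with stress, against 32.5, 39.5 and 46.1 CPM without (log2 fold change 1.38, SE 0.19, edgeR adjusted p = 0.0025) and the gelatinase Mmp9 was 128, 59.6 and 57.2 CPM with stress, against 31.7, 18.1 and 16.3 CPM without (log2 fold change 1.89, SE 0.33, edgeR adjusted p = 0.014). In Mmp3 and Mmp9 the stressed replicate 1 was the highest of the 6 libraries, and in Mmp10 the 3 stressed libraries lay close together. With the replicate block 5 of the proteases rose. The Mmp3 call was lost with the block in the 6 libraries alone (edgeR adjusted p = 0.26). The Mmp9 call ended without Ddx5 siRNA replicate 2 (0.090) or 3 (0.076). Mmp13, the collagenase that cuts type II collagen, stayed low, at 8.15, 1.78 and 2.02 CPM with stress, against 1.39, 0.435 and 0.375 CPM without. It did not pass (edgeR adjusted p = 0.060, and 0.024 with the block). The urokinase gene Plau was 41.8, 15.8 and 14.04 CPM with stress, against 11.7, 3.29 and 3.31 CPM without (edgeR adjusted p = 0.28, and 0.0042 with the block). The aggrecanases Adamts4 and Adamts5, which cut the main cartilage proteoglycan, did not pass. Adamts4 was 16.6, 5.97 and 5.06 CPM with stress, against 12.1, 2.42 and 3.56 CPM without (log2 fold change 0.61, SE 0.55), and Adamts5 was 24.4, 11.7 and 10.9 CPM with stress, against 32.99, 12.6 and 10.5 CPM without (log2 fold change −0.25, SE 0.39). Both were highest in the replicate 1 libraries, and the groups overlapped. Of 15 tested protease inhibitors none was called (median 0.11), and Timp1, an inhibitor of metalloproteinases, averaged 806 ± 216 CPM with stress and 747 ± 184 CPM without (SD, n = 3 each).

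Genes of glucose use had values of 1 sign. All 23 tested glycolysis genes had positive log2 fold changes (median 0.62), as did 7041 of all 14147 tested genes. Of the 23 genes 6 rose, against 1.05% of all tested genes. Slc2a1 (chromosome 5, 138154673 to 138182897), the main glucose transporter of most cells, was 611, 159 and 224 CPM with stress, against 69.03, 52.3 and 50.7 CPM without (log2 fold change 2.53, SE 0.41, edgeR adjusted p = 0.011). Hk2, the hexokinase that traps glucose in the cell, was 240.2, 108 and 125 CPM with stress, against 40.1, 39.6 and 44.9 CPM without (log2 fold change 1.92, SE 0.26, edgeR adjusted p = 0.0025). Pfkfb3, which makes the strongest activator of phosphofructokinase, was 196, 80.6 and 99.6 CPM with stress, against 44.4, 27.6 and 26.4 CPM without (log2 fold change 1.94, SE 0.31, edgeR adjusted p = 0.0093). In each of them stressed replicate 1 lay far above the other stressed libraries, and these in turn lay above all unstressed ones. Pfkl, a phosphofructokinase subunit, rose by 1.37 (SE 0.26). Pdk1, a mitochondrial kinase that inhibits pyruvate dehydrogenase, rose by 1.33 (SE 0.21), and the lactate transporter Slc16a1 by 0.68 (SE 0.13). The calls of Slc2a1, Pfkl and Pfkfb3 ended without Ddx5 siRNA replicate 2 (edgeR adjusted p = 0.067 to 0.14) or 3 (0.066 to 0.11), and that of Slc16a1 without Ddx5 siRNA plus stress replicate 1 (0.054) or Ddx5 siRNA replicate 2 (0.11). Those of Hk2 and Pdk1 held with any 1 library left out. With the block in the 6 libraries alone those of Slc2a1 and Hk2 were lost (edgeR adjusted p = 0.18 and 0.17), and with no filter on low counts that of Pfkl (0.051). Abundant enzymes of the pathway had smaller fold changes. Ldha, which makes lactate, was 1395, 1168 and 1283 CPM with stress, against 988, 978 and 984 CPM without (log2 fold change 0.38, SE 0.09), and Pgk1 was 971, 609 and 711 CPM with stress, against 627, 491 and 493 CPM without (log2 fold change 0.51, SE 0.15). Neither passed (edgeR adjusted p = 0.060 and 0.16, and 0.033 and 0.032 with the block), although the stressed libraries of Ldha all lay above the unstressed ones.

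Hypoxia-inducible genes outside glycolysis also had positive values throughout. All 21 tested members had positive log2 fold changes (median 1.08), as did 7041 of all 14147 tested genes. Of the 21 members 5 rose, against 1.05% of all tested genes. Kdm3a, a histone demethylase that itself needs oxygen, was 80.7, 50.9 and 52.5 CPM with stress, against 24.7, 22.4 and 22.3 CPM without (log2 fold change 1.41, SE 0.16, edgeR adjusted p = 0.00044). Higd1a, a mitochondrial protein, was 150.3, 73.8 and 95.02 CPM with stress, against 45.6, 34.9 and 32.4 CPM without (a 2.83-fold difference, edgeR adjusted p = 0.0031). Bnip3, a receptor that marks mitochondria for removal, was 254, 74.2 and 99.6 CPM with stress, against 48.3, 23.3 and 22.1 CPM without (log2 fold change 2.19, SE 0.45, edgeR adjusted p = 0.042). Stressed replicate 1 was again the highest library of all 6 in each. Ankrd37 rose by 2.61 (SE 0.43) and Stc2, a secreted stanniocalcin, by 1.02 (SE 0.23). The calls of Kdm3a and Higd1a held with any 1 library left out. That of Bnip3 ended without Ddx5 siRNA plus stress replicate 1 (0.075), Ddx5 siRNA replicate 2 (0.20) or 3 (0.19), that of Ankrd37 without Ddx5 siRNA replicate 2 (0.057) or 3 (0.054), and that of Stc2 without Ddx5 siRNA plus stress replicate 1 (0.10), 2 (0.085), 3 (0.095), Ddx5 siRNA replicate 1 (0.051) or 2 (0.17). The Stc2 call was also lost with the block in the 6 libraries alone (edgeR adjusted p = 0.12), and the Bnip3 call with no filter on low counts (0.081). Members that did not pass varied in pattern. Mxi1, a partner of MAX, had even log2 differences within the replicates, 1.17, 0.99 and 0.96 (edgeR adjusted p = 0.094, and 0.049 with the block). Vegfa, the vascular growth factor, was 655, 346 and 389.6 CPM with stress, against 233, 266 and 286 CPM without (log2 fold change 0.82, SE 0.20, edgeR adjusted p = 0.060), Car9, a carbonic anhydrase at the cell surface, was 75.6, 24.6 and 34.1 CPM with stress, against 24.5, 18.4 and 23.9 CPM without (log2 fold change 1.01, SE 0.45, edgeR adjusted p = 0.42), and Egln3, an oxygen-sensing hydroxylase, was 25.4, 1.44 and 1.96 CPM with stress, against 0.992, 0.248 and 0.062 CPM without (log2 fold change 4.46, SE 1.23, edgeR adjusted p = 0.14, and 0.028 with the block). In Vegfa, Car9 and Egln3 stressed replicate 1 exceeded the next stressed library by a wide margin.

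With the replicate block 10 glycolysis genes and 8 hypoxia genes rose. The counts of 6 and 5 were 2 and 2 without Ddx5 siRNA replicate 2, 3 and 3 without Ddx5 siRNA replicate 3, and 9 and 10 without Ddx5 siRNA plus stress replicate 2. The metabolic lists had their largest differences within replicate 1, as did the immediate early list (medians 0.53, 0.11 and 0.085 within replicates 1, 2 and 3). Over both metabolic lists the stressed replicate 1 library was the highest of the 6 in 41 of 44 genes (93.2%), against 26 of 58 (44.8%) in the 3 inflammatory lists and 25.7% of all tested genes. It was also the highest in 101 of the 149 genes that rose (67.8%), so this trait is not particular to the metabolic lists. The median differences of these 149 genes were 1.39, 0.96 and 1.07 within replicates 1, 2 and 3. Within replicate 1 the median log2 difference, stressed minus unstressed, was 1.43 over the metabolic genes, and it was 0.69 and 0.64 within replicates 2 and 3. For the inflammatory genes the medians were 0.85, 0.74 and 0.94. Summed, the hypoxia list was at 5812, 2245 and 2457 CPM with stress, against 2013, 1511 and 1503 CPM without. The glycolysis list was at 14443, 8518 and 9679 CPM, against 8949, 7171 and 7202 CPM. Unstressed replicate 1 exceeded the stressed replicate 2 library in the glycolysis sum, so these sums overlap between groups. Without both replicate 1 libraries, a choice made after the data were seen, 5 glycolysis genes and 6 hypoxia genes rose, and the list medians were 0.42 and 0.98. For the NF-kB, chemokine and inflammatory mediator lists it was 8, 9 and 9 genes, with medians of 0.59, 1.76 and 0.92. Proliferation genes were lowest in replicate 1 of each group, at 1119, 2189 and 2411 CPM with stress and 1497, 2470 and 2833 CPM without, and none of the 28 tested was called. What sets replicate 1 apart was not tested.

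**Figure D3:**
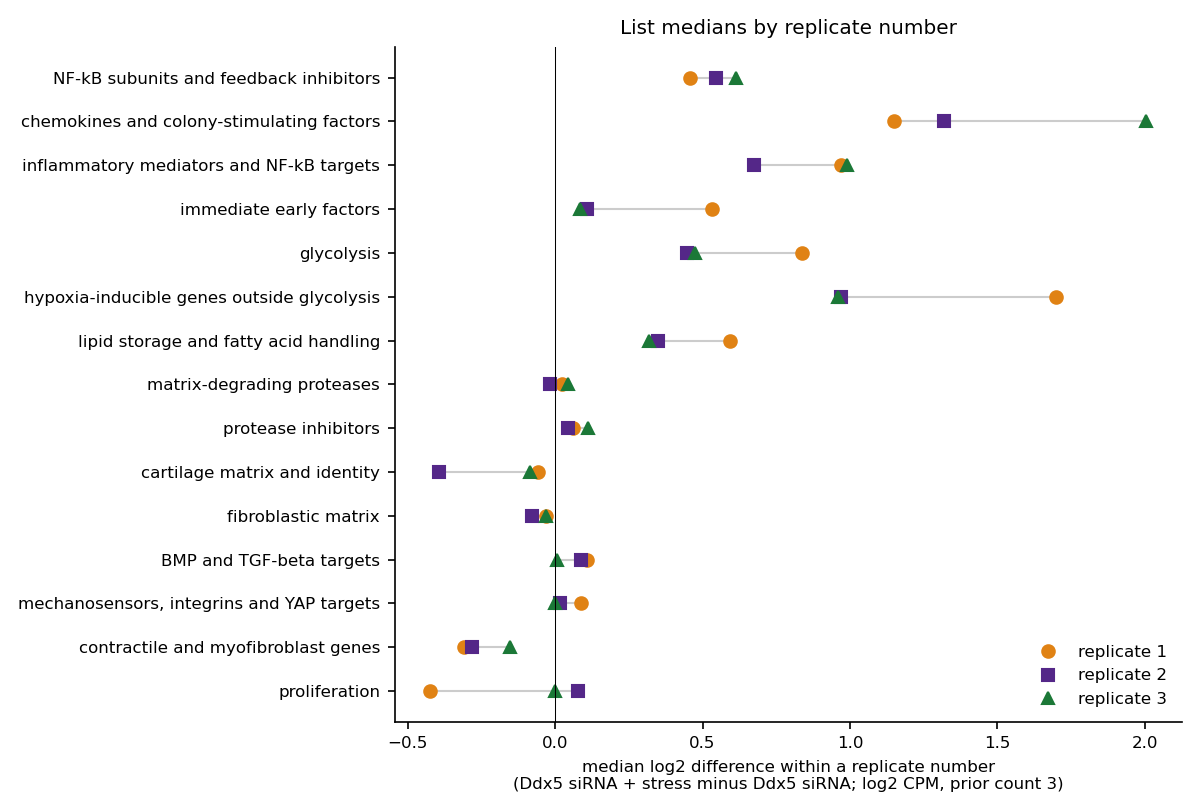
Median log2 difference of each gene list within a replicate number (Ddx5 siRNA plus stress minus Ddx5 siRNA), 1 point per replicate number. Replicate 1 lies well to the right of the others for the glycolysis, hypoxia, lipid and immediate early lists. For the chemokine list replicate 3 is highest, and for the proliferation list replicate 1 is lowest.

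Genes of lipid handling included some of the steepest rises. Of 17 tested members 3 rose and none fell (median 0.51), where 1.05% of all tested genes rose. G0s2, an inhibitor of the lipase that empties fat droplets, was 114, 20.3 and 24.3 CPM with stress, against 2.71, 0.559 and 0.25 CPM without (log2 fold change 5.51, SE 0.98, edgeR adjusted p = 0.023). Hilpda, a droplet protein induced by low oxygen, was 63.5, 14.5 and 17.6 CPM with stress, against 5.62, 3.66 and 5.12 CPM without (log2 fold change 2.73, SE 0.46, edgeR adjusted p = 0.011). Stressed replicate 1 lay far above the other stressed libraries in both. Their calls ended without Ddx5 siRNA replicate 2 (edgeR adjusted p = 0.085 to 0.14) or 3 (0.070 to 0.11), and that of Hilpda also with the block in the 6 libraries alone (0.11). Cpt1a (chromosome 1, 218569510 to 218629678) brings long-chain fatty acids into mitochondria for burning and had another pattern. It was 44.4, 68.7 and 66.6 CPM with stress, against 17.98, 15.6 and 19.8 CPM without (log2 fold change 1.75, SE 0.20, edgeR adjusted p = 0.00044). Here stressed replicate 1 was the lowest of the stressed libraries, the groups were far apart, and the call held with any 1 library left out. With the block 6 members of the list rose, and without Ddx5 siRNA replicate 1 it was 5. Angptl4, a secreted inhibitor of lipoprotein lipase, was 284, 74.03 and 73.9 CPM with stress, against 20.03, 2.61 and 2.12 CPM without. With a log2 fold change of 4.13 (SE 0.91) it did not pass (edgeR adjusted p = 0.061, and 0.0088 with the block). The groups did not overlap, but unstressed replicate 1 lay well above the other unstressed libraries.

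The 20 genes that fell included developmental transcription factors and feedback regulators, and their fold changes were smaller. Sox9, which sets chondrocyte identity, was 9.84, 10.5 and 13.4 CPM with stress, against 14.7, 27.8 and 22.4 CPM without (log2 fold change −0.94, SE 0.21, edgeR adjusted p = 0.045). The stressed libraries were all lower, though unstressed replicate 1 lay close to the stressed libraries. Leaving out single libraries ended the call, without Ddx5 siRNA plus stress replicate 1 (0.15), 2 (0.13), Ddx5 siRNA replicate 2 (0.25) or 3 (0.14). Scx, a factor of tendon and ligament cells, was 99.5, 109.5 and 111 CPM with stress, against 151, 199 and 159.8 CPM without (log2 fold change −0.67, SE 0.12, edgeR adjusted p = 0.011). Six2, a homeobox factor, was 27.3, 43.7 and 46.98 CPM with stress, against 62.02, 65.01 and 64.4 CPM without (log2 fold change −0.70, SE 0.16, edgeR adjusted p = 0.048). Id3, an inhibitor of helix-loop-helix factors and a target of BMP signalling, was 106, 79.7 and 108 CPM with stress, against 158, 178 and 182 CPM without (log2 fold change −0.82, SE 0.14, edgeR adjusted p = 0.0096). In each of these the highest stressed library lay below the lowest unstressed one. Spry1 (chromosome 2, 124400679 to 124405331), a feedback inhibitor of receptor tyrosine kinases, was 12.9, 16.5 and 13.8 CPM with stress, against 29.2, 28.6 and 26 CPM without (log2 fold change −0.95, SE 0.14, edgeR adjusted p = 0.0030). Cdc42ep1, an effector of the small GTPase CDC42, was 47.7, 63.9 and 66.95 CPM with stress, against 94.02, 110.0 and 107 CPM without (log2 fold change −0.80, SE 0.13, edgeR adjusted p = 0.0065), and the membrane protein gene Tmem119, known from bone-forming cells, was 152, 146 and 159.8 CPM with stress, against 206, 223 and 219 CPM without (log2 fold change −0.50, SE 0.08, edgeR adjusted p = 0.0034). With Filip1l (log2 fold change −0.94, SE 0.17) these were the fallen genes whose calls held with any 1 library left out. The largest falls among named genes were those of Wscd2 (log2 fold change −1.27, SE 0.26) and Cmklr1, the receptor for chemerin (log2 fold change −1.20, SE 0.25). The Wnt antagonist Dkk4, the sphingosine kinase Sphk1 and the Hedgehog co-receptor Gas1 fell by 0.79, 0.56 and 0.86 on the log2 scale, and Tcta by 0.49. Myh1, as annotated a skeletal muscle myosin whose gene shares much sequence with its neighbours, fell by 0.83. The skeletal muscle list summed to 16.3 to 27.8 CPM with stress and 22.8 to 42.6 CPM without, with Myh7, Myog and Pax7 at 0, and its part in the Myh1 value was not tested. Each of these calls rested on single libraries. The Scx call ended without Ddx5 siRNA replicate 2 (0.080), that of Id3 without Ddx5 siRNA replicate 2 (0.057) or 3 (0.053), and that of Six2 without Ddx5 siRNA plus stress replicate 1 (0.082), 2 (0.056), Ddx5 siRNA replicate 1 (0.077), 2 (0.18) or 3 (0.14). That of Wscd2 ended without Ddx5 siRNA plus stress replicate 2 (0.092), 3 (0.081), Ddx5 siRNA replicate 2 (0.14) or 3 (0.080), and that of Cmklr1 without Ddx5 siRNA plus stress replicate 1 (0.096), 3 (0.089), Ddx5 siRNA replicate 2 (0.17) or 3 (0.088). For Dkk4 it was Ddx5 siRNA plus stress replicate 1 (0.065), 3 (0.12), Ddx5 siRNA replicate 1 (0.072), 2 (0.18) or 3 (0.076), and for Sphk1 Ddx5 siRNA plus stress replicate 2 (0.056), 3 (0.081), Ddx5 siRNA replicate 2 (0.14) or 3 (0.11). The Tcta call ended without Ddx5 siRNA plus stress replicate 1 (0.12), 2 (0.15), Ddx5 siRNA replicate 1 (0.13) or 2 (0.21), and the Myh1 call without Ddx5 siRNA plus stress replicate 1 (0.055), Ddx5 siRNA replicate 2 (0.057) or 3 (0.072). Without a filter on low counts Dkk4 was not called (0.061). Gas1 lost its call whichever of the 6 libraries was omitted (edgeR adjusted p = 0.065 to 0.14).

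Around these factors the matrix lists gave 1 call or none each, where 1.19% of all tested genes were called. In lists of this size such counts do not differ clearly from that share. Of 16 tested cartilage matrix and identity genes Sox9 was the one call (median −0.009). Acan, the main cartilage proteoglycan, was 143, 248 and 279 CPM with stress, against 168, 352 and 367 CPM without (log2 fold change −0.41, SE 0.38, edgeR adjusted p = 0.80), with the lowest library of each group in replicate 1. It passed with the block in the 6 libraries alone (edgeR adjusted p = 0.0031). Of 13 tested hypertrophy and mineralization genes none was called (median −0.04). Runx2, a regulator of chondrocyte hypertrophy, had a log2 fold change of −0.53 (SE 0.13, edgeR adjusted p = 0.066, and 0.038 with the block). None of 27 fibroblastic matrix genes was called (median −0.061). Col1a1 averaged 51936 ± 15167 CPM with stress and 53325 ± 12864 CPM without (log2 fold change −0.04, SE 0.20, edgeR adjusted p = 0.98), and its spread followed replicate 1 in both groups. Of 23 tested BMP and TGF-beta genes, which include ligands, receptors and antagonists besides targets, Id3 fell and none rose (median 0.055). Id4 (−0.71, edgeR adjusted p = 0.060) did not pass, and did with the block (0.017), in DESeq2 (0.0068), with no filter on low counts (0.040) and without Ddx5 siRNA plus stress replicate 3 (0.016). Genes that sense and carry force gave 1 call. Of 24 tested mechanosensors, integrins and YAP targets 1 fell and none rose (median 0.002). That gene was Vcl, which encodes vinculin, the protein that links integrin adhesions to actin. It was 390.2, 428 and 437 CPM with stress, against 607, 538 and 565 CPM without (log2 fold change −0.45, SE 0.10, edgeR adjusted p = 0.032). Each stressed library was lower than each unstressed one, but the call ended whichever of the 6 libraries was omitted (edgeR adjusted p = 0.053 to 0.11). Piezo1, a stretch-gated channel, was 957, 844 and 842 CPM with stress, against 799, 684 and 706 CPM without (log2 fold change 0.27, SE 0.14, edgeR adjusted p = 0.50, and 0.0092 with the block in the 6 libraries alone), and the YAP target Ctgf averaged 8132 ± 685 CPM with stress and 8503 ± 1895 CPM without (log2 fold change −0.06, SE 0.14). Cav1, a caveola coat protein, had −0.42 (edgeR adjusted p = 0.088, and 0.024 with the block). Contractile and myofibroblast genes gave no call and mostly negative values. Of 18 tested members 17 had negative log2 fold changes (median −0.25), where 7041 of all 14147 tested genes had positive ones. Acta2, smooth muscle actin, was 2242, 1096 and 1133 CPM with stress, against 3069.7, 1851 and 1617 CPM without (log2 fold change −0.55, SE 0.35, edgeR adjusted p = 0.63, and 0.00011 with the block in the 6 libraries alone), and the groups overlapped, with replicate 1 highest in each. Lmod1, a leiomodin, had −0.90 (edgeR adjusted p = 0.13, and 0.0022 with the block).

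Lists of other stress programmes gave 1 call or none each. Since 1.19% of all tested genes were called, so few calls in lists of this size set them apart from no other genes. In the endoplasmic reticulum stress list 1 of 23 rose (median 0.033). It was Ppp1r15a, the phosphatase subunit that restores translation after stress, at 279, 152 and 124 CPM with stress, against 72.7, 87.5 and 85.1 CPM without (log2 fold change 1.18, SE 0.23, edgeR adjusted p = 0.025). The call was lost with the block (0.055; 0.36 in the 6 libraries alone), with no filter on low counts (0.050) and without Ddx5 siRNA replicate 1 (0.090), 2 (0.10) or 3 (0.11). Ddx41, another DEAD-box helicase, was the one call among 26 tested DEAD-box and DEAH-box genes (median −0.03). It rose by 0.77 (SE 0.16), a call lost without Ddx5 siRNA plus stress replicate 1 (0.077), Ddx5 siRNA replicate 2 (0.16) or 3 (0.12). Ddx17, the closest relative of Ddx5, was 143, 167 and 176 CPM with stress, against 149, 143 and 178 CPM without (log2 fold change 0.05, SE 0.16). No member was called among 27 genes of the ATF4 response (median −0.009), 19 heat shock genes (0.001), 22 antioxidant genes (0.033) and 24 cholesterol synthesis genes (0.023). The same held for 21 p53 targets and cyclin-dependent kinase inhibitors (0.152), 26 splicing factors (−0.084) and 27 respiratory chain subunits (−0.068). It also held for 28 proliferation genes (−0.075), 11 zinc genes (0.203) and 25 interferon and antigen presentation genes (0.46). The interferon list had the highest of these medians. Its sum was 1165 to 1279 CPM with stress and 1031 to 1222 CPM without, which overlap. Hmox1, the heme-degrading enzyme of the antioxidant and hypoxia lists, was 1307, 246 and 272 CPM with stress, against 123, 82.6 and 66.7 CPM without (log2 fold change 2.75, SE 0.65, edgeR adjusted p = 0.086), highest in stressed replicate 1.

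**Figure D4:**
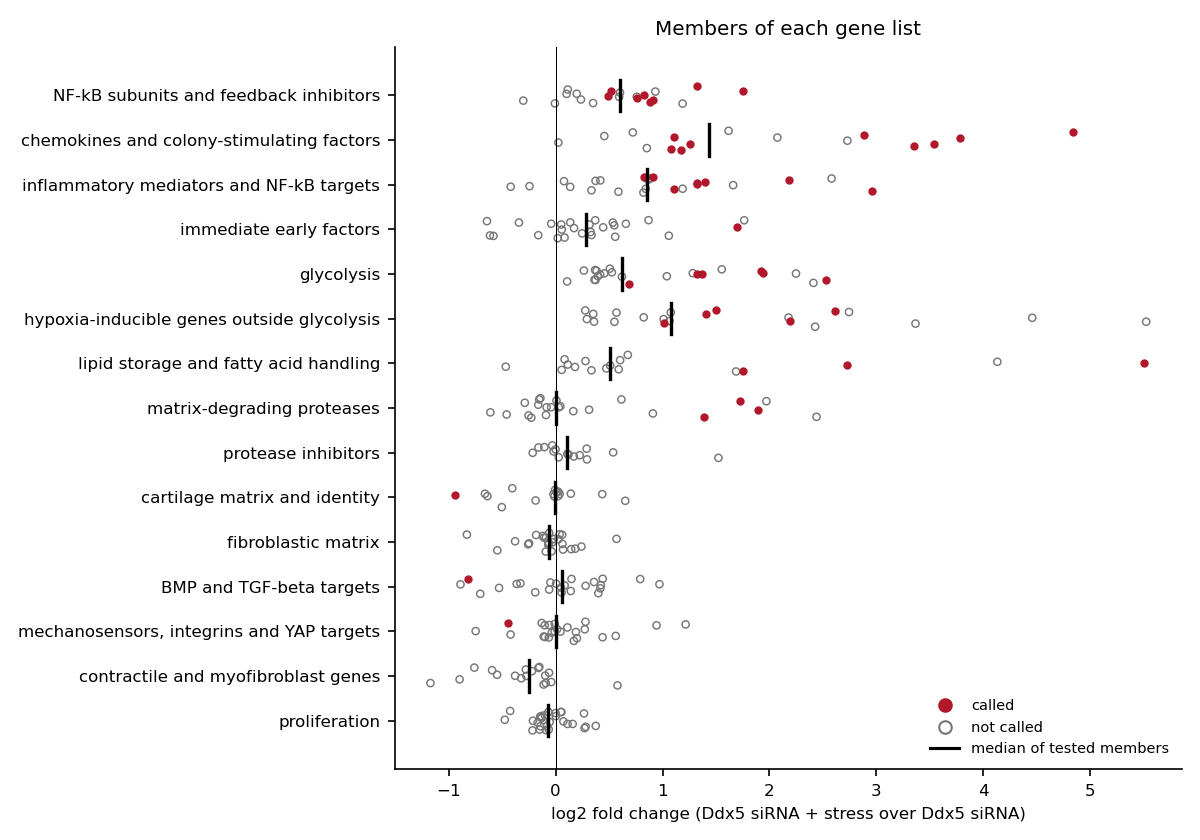
Log2 fold change (Ddx5 siRNA plus stress over Ddx5 siRNA) of each tested member of 15 gene lists, 1 point per gene. Filled points are called, open points are not, and the black bar is the median of the list. The NF-kB, chemokine, mediator, glycolysis, hypoxia and lipid lists lie mostly right of 0, and the cartilage, fibroblastic matrix and proliferation lists lie around it.

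Among the genes that rose most several belong to none of these groups. Smtnl2, a relative of the smooth muscle protein smoothelin, had 181 counts over the stressed libraries and 1 over the unstressed ones. That is a ratio of 187, with a 95% interval of 33.1 to 7423 that covers counting error only, and most of the counts came from replicate 1 (8.47, 0.755 and 2.53 CPM with stress, against 0.066, 0 and 0 CPM without). Olr1, a receptor for oxidized lipoproteins, was 17.2, 11.2 and 16.3 CPM with stress, against 3.44, 2.05 and 2.25 CPM without (log2 fold change 2.53, SE 0.55, edgeR adjusted p = 0.045), and Kbtbd11 was 10.1, 1.58 and 2.53 CPM with stress, against 0.595, 0.124 and 0.625 CPM without (log2 fold change 3.38, SE 0.72, edgeR adjusted p = 0.032). Stressed and unstressed libraries were separate in both, which the rule for naming them required. Rapgef5, an exchange factor for Rap GTPases, was steady across the stressed libraries and low in the unstressed ones. It was 3.13, 2.81 and 3.04 CPM with stress, against 0.463, 0.745 and 0.312 CPM without (log2 fold change 2.54, SE 0.38, edgeR adjusted p = 0.0031). The Rapgef5 and Smtnl2 calls held with any 1 library left out. That of Kbtbd11 ended without Ddx5 siRNA plus stress replicate 1 (0.16), Ddx5 siRNA replicate 1 (0.071), 2 (0.17) or 3 (0.11), and that of Olr1 whichever of the 6 was omitted (edgeR adjusted p = 0.052 to 0.23). Among the most abundant called genes, Cyp1b1, a cytochrome P450 that oxidizes steroids and retinoids, was 493, 762 and 855 CPM with stress, against 371, 199 and 234 CPM without (log2 fold change 1.39, SE 0.23, edgeR adjusted p = 0.0079). Its lowest stressed and highest unstressed libraries were both replicate 1. Ifngr1, the ligand-binding subunit of the interferon-gamma receptor, was 322, 259 and 283 CPM with stress, against 200.1, 159.9 and 162 CPM without (log2 fold change 0.73, SE 0.12, edgeR adjusted p = 0.0055). Ktn1, a membrane protein that binds the motor kinesin, rose by 0.55 and Gpr176, an orphan receptor, by 0.37. The Cyp1b1 call was lost with the block in the 6 libraries alone (edgeR adjusted p = 0.33). It ended without Ddx5 siRNA replicate 3 (0.056), that of Ifngr1 without Ddx5 siRNA replicate 2 (0.052), that of Ktn1 without Ddx5 siRNA plus stress replicate 2 (0.066), 3 (0.064), Ddx5 siRNA replicate 1 (0.074), 2 (0.087) or 3 (0.054), and that of Gpr176 whichever was omitted (edgeR adjusted p = 0.073 to 0.13). With no filter on low counts Gpr176 and Olr1 were not called (0.087 and 0.095).

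The response was set beside that of cells without siRNA, stressed over control, which shares no library with it. Of the 169 genes 167 had the same sign there and 97 were also called, 88 of them up and 9 down. Over all tested genes 66.5% had the same sign in both, and 199 (1.41%) were called in cells without siRNA, so the 97 are 57.4% of the genes called with the siRNA and 48.7% of those called without it. The exceptions in sign, named after their values were seen, were Tmem251 (0.89 with the siRNA and −0.27 without) and LOC100911440 (3.46 and −1.29). Direct tests of the difference between the responses called 0 genes in edgeR (0% of those tested, 441 or 3.12% at an unadjusted p under 0.05) and 4 in DESeq2, and edgeR called 1 without stress replicate 1 and 2 without stress replicate 3. A miss of the threshold does not show that the responses were alike, so sizes are given for the named genes. Tnfaip3 had 1.32 with the siRNA and 0.69 without, a difference of 0.63 (SE 0.27) on the log2 scale. Cxcl1 had 1.08 and 0.52, a difference of 0.55 (SE 0.23), and Csf2 had 3.79 and 2.96, a difference of 0.82 (SE 0.50). Vcam1 (−0.23, SE 0.45), Tnip1 (−0.29, SE 0.14) and Ccl5 (−0.61, SE 0.80) had differences of the other sign. In the metabolic genes Slc2a1 differed by 0.43 (SE 0.55), Hk2 by 0.33 (SE 0.35), Pfkl by −0.34 (SE 0.36), Hilpda by 1.04 (SE 0.62) and Cpt1a by 0.15 (SE 0.27). Among the genes that fell the differences were −0.03 (SE 0.30) for Sox9, 0.15 (SE 0.20) for Id3, −0.09 (SE 0.20) for Spry1 and −0.29 (SE 0.19) for Cdc42ep1. By list, the median response with the siRNA was 0.60 for NF-kB genes, 1.44 for chemokines, 0.62 for glycolysis and 1.08 for hypoxia genes, against 0.44, 1.75, 0.55 and 1.08 without it. No member of any list was called in the test of the difference. Since no group received a control siRNA with stress, the Ddx5 siRNA and the presence of any siRNA cannot be told apart in this comparison.

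**Figure D5:**
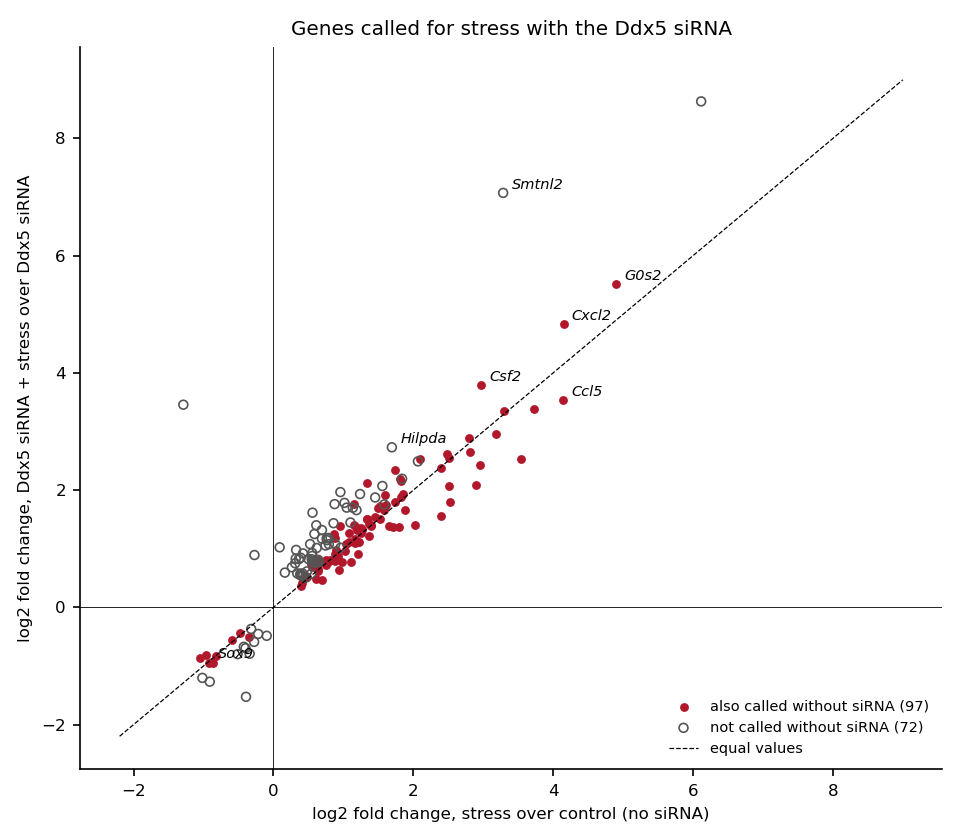
Log2 fold change of the 169 called genes with the Ddx5 siRNA (vertical axis, Ddx5 siRNA plus stress over Ddx5 siRNA) against that without siRNA (horizontal axis, stress over control). Filled points, 97 genes, are also called without siRNA. Most points lie near the dashed line of equal values, and since the genes were chosen by the vertical axis, points above the line are favoured.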

How the data were processed

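Total RNA had been taken with Trizol, per the labels' protocols, and RNA-seq gave 1 library per sample. The authors deposited raw read counts per gene, 1 column per library with no pooling, with gene names, coordinates and lengths. They also deposited FPKM values, which equal count over length and over 1 number per library and hold no other reads. They serve here to compare levels between genes. The sources used here give no aligner, counter, strand setting or genome build, so close paralogs and overlapping genes may share reads. Loci without a name (1173) held at most 1.30% of a library's counts.

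Genes low in all groups were removed with filterByExpr. Library sizes were adjusted by TMM (a trimmed mean of log ratios). The model was fitted to the 15 libraries in edgeR 4.0.16 (R 4.3.3), 1 term for each group (quasi-likelihood F test, robust, Benjamini-Hochberg over 14147 genes, call at an adjusted p under 0.05; common biological coefficient of variation 0.217). At these depths 3 counts are 0.186 to 0.206 CPM. Log2 fold changes are stressed over unstressed, not shrunk. Values per replicate number are log2 CPM with a prior count of 3. The procedure was tested on simulated data.

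Of 711 list entries 681 matched by name, 14 through an older symbol in a RefSeq table and 16 not at all. The genes, lists and tests were chosen with earlier results of these data known. Named genes were 16 preset ones, the 15 called genes of the largest rise and the 15 of the largest fall (at least 2 CPM in the higher group, groups not overlapping, no provisional symbol), the 10 most abundant called genes and up to 6 called members per list by lowest p. Exceptions are marked in the text, and list members given that did not pass were chosen as examples after their values were seen. A gene that the rule names is not reported here.

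Replicates of a group differed by more than sampling noise (chi-square per degree of freedom 8.08 to 67.7). Deviations from the group means correlated between same-numbered libraries at 0.589, 0.252 and 0.352 over genes, so the replicate block takes the number to pair them. The main fit has no term for this pairing. Its calls, and the genes said not to pass, thus come from an unpaired test. Stressed replicate 2 correlated about as well with unstressed replicate 3 (0.257), and stressed replicate 3 did so with unstressed replicate 2 at 0.245. The values thus set apart the pair of number 1 and do not settle the pairs of numbers 2 and 3. The labels give only numbers, so the block and the differences within replicates 2 and 3 rest on the number. Alternatives were RLE scaling, other filters and thresholds, the replicate block, a fit of the 6 libraries alone, DESeq2 1.42.0 and leaving out libraries.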

Additional observations from a re-analysis of the deposited data

How the results depend on the processing

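The count of 169 genes (149 up, 20 down) was 163 with RLE scaling, 166 without a filter and 174 with a mean of at least 1 CPM. The replicate block in all 15 libraries gave 250 genes, 31 of them down, and kept 166 of the 169. Fitting only the 6 libraries gave 23 (20 up, 3 down), and with the replicate block 985 (641 up, 344 down; 146 kept). DESeq2 gave 369 (293 up, 76 down), including all 169. The count was 97 (94 up, 3 down) with a 2-fold minimum, and 268 (232 up, 36 down) at an adjusted p under 0.10. Leaving out single libraries gave 61 to 187 genes, 57 to 173 up and 4 to 24 down. Alternatives chosen after seeing the data left out both libraries of a replicate number. Without number 1 there were 148, of which 106 kept their call. Without number 2 there were 62 (58 up, 4 down), and without number 3 there were 58 (54 up, 4 down). 38 genes, 37 of them up, were called in each of these 3 fits. The difference between the responses gave 4 genes in DESeq2 and 0 to 2 with 1 library left out. Ddx5 had a log2 fold change of −0.34 to −0.06 with 1 library left out. Values that did not pass changed sign for Ddx17 (−0.018 to 0.141 with 1 library left out, −0.039 without both number 2 libraries), Adamts4 (−0.13 to 1.62) and Adamts5 (−0.72 to 0.44). The cause was not tested. Beyond the calls named in the text, the replicate block in all 15 libraries changed the call of no other preset gene or named member. Chondrocyte markers other than Acan were mostly low, so depth limits what their list can show.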

Other observations

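Some called genes outside the lists are given here, each chosen after its values were seen, so that they stand for no group. Kdm4b, a histone demethylase, was 118, 64.1 and 77.6 CPM with stress, against 47.9, 31.1 and 32.2 CPM without (log2 fold change 1.22, SE 0.20, edgeR adjusted p = 0.0055). Jmjd6, a hydroxylase, was 41.1, 35.7 and 43.4 CPM with stress, against 19.6, 26.9 and 25.4 CPM without (log2 fold change 0.74, SE 0.13, edgeR adjusted p = 0.0072), and Alkbh5, an RNA demethylase, was 97.9, 61.96 and 65.8 CPM with stress, against 36.6, 41.1 and 40.9 CPM without (log2 fold change 0.93, SE 0.17, edgeR adjusted p = 0.011). The stressed libraries lay above the unstressed ones in each. Vhl, which marks hypoxia-inducible factors for breakdown, was 74.8, 65.5 and 63.4 CPM with stress, against 39.3, 50.5 and 46.8 CPM without (log2 fold change 0.58, SE 0.10, edgeR adjusted p = 0.011). The calls of Kdm4b, Jmjd6 and Vhl held with any 1 library left out, and that of Alkbh5 ended without Ddx5 siRNA replicate 2 (0.057) or 3 (0.054) and with the replicate block in the 6 libraries alone (0.053).

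Tapbp, which loads peptides onto class I molecules, was 89.1, 76.98 and 83.8 CPM with stress, against 56.1, 46.9 and 51.7 CPM without (log2 fold change 0.69, SE 0.10, edgeR adjusted p = 0.0025). Jak2, a kinase of cytokine receptors, was 76.5, 84.7 and 88.6 CPM with stress, against 45.7, 50.7 and 57.1 CPM without (log2 fold change 0.70, SE 0.11, edgeR adjusted p = 0.0046). Icoslg, a ligand that costimulates T cells, was 18.8, 31.5 and 31.2 CPM with stress, against 4.36, 9.06 and 9.88 CPM without (log2 fold change 1.80, SE 0.28, edgeR adjusted p = 0.0046). Those calls held with any 1 library left out. Plat, the tissue plasminogen activator, was 142, 136 and 119 CPM with stress, against 76.9, 72.2 and 54.6 CPM without (log2 fold change 0.96, SE 0.14, edgeR adjusted p = 0.0025). Klf5, a zinc finger factor, was 23.3, 24.2 and 24.8 CPM with stress, against 7.27, 9.75 and 10.7 CPM without (log2 fold change 1.38, SE 0.19, edgeR adjusted p = 0.0020), and Ass1, an enzyme of arginine synthesis, was 14.7, 15.4 and 13.3 CPM with stress, against 4.56, 2.92 and 2.75 CPM without (log2 fold change 2.08, SE 0.33, edgeR adjusted p = 0.0046). These genes were steady across the stressed libraries. Nampt, which makes a precursor of NAD, was instead highest in stressed replicate 1, at 82.1, 37.4 and 42.9 CPM with stress, against 21.3, 19.2 and 19.6 CPM without (log2 fold change 1.44, SE 0.24, edgeR adjusted p = 0.0080), and its call ended without Ddx5 siRNA replicate 2 (0.057) or 3 (0.055).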
